A study of Mus musculus with 24 samples.

Results

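Mitochondrial ribosomal protein genes were followed in the plantaris, a hindlimb muscle that extends the ankle, of wildtype and Mstn-/- mice with and without mechanical overload. They were taken as every gene whose symbol starts with Mrpl or Mrps followed by a number, without pseudogenes, and that has a probe set annotated with exactly 1 gene symbol. This gave 77 of the 19937 genes so measured, 48 with an Mrpl and 29 with an Mrps symbol. All 77 passed the filter on dim genes, which left 14499 genes tested. Mrpl53 shares its only probe set with Ccdc142 and is therefore not among them.

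The mitochondrial ribosome translates the few messages made from mitochondrial DNA, all of which code for core subunits of the respiratory chain and ATP synthase. Its RNA is encoded in mitochondrial DNA, but every protein of its large and small subunits is encoded in the nucleus, made on cytosolic ribosomes and imported. Some of these proteins descend from proteins of the bacterial ribosome and others are found only in mitochondria. Muscle fibres rich in mitochondria depend on this machinery to build oxidative capacity.

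Of the 77 genes, 50 encode large-subunit proteins, 30 of them counterparts of bacterial proteins and 20 specific to mitochondria. Another 26 encode small-subunit proteins, 16 with bacterial counterparts and 10 specific to mitochondria. Mrps30 and Mrps18a are counted with the large subunit, where their proteins lie despite their symbols. Mrps18a and Mrps18b are counted as specific to mitochondria, although both are relatives of a bacterial protein. Mrps36 belongs to neither, since its protein is a subunit of the 2-oxoglutarate dehydrogenase complex of the citric acid cycle.

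The 4 groups each had 6 biological replicates, all from mice aged 3 months: untreated wildtype, overloaded wildtype, untreated Mstn-/- and overloaded Mstn-/-. Mstn-/- mice lack functional myostatin, a secreted protein that limits muscle growth. For overload, the soleus and most of the gastrocnemius were cut away in both legs under pentobarbitone at 50 mg/kg, so that the plantaris carried the load alone. Control mice of both genotypes had no operation, so surgery and overload come together in each overloaded group, and the sources used here do not say how long the overload lasted. RNA of the muscle of 1 side was read on whole-transcript arrays from 1000 ng of total RNA, 24 arrays in all.

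Levels are log2 intensities and differences are log2 ratios of group means, so 1 unit is a doubling. A difference is called when its p from limma, fitted across all 14499 genes on all 24 arrays and adjusted by Benjamini-Hochberg, is under 0.05. Levels are compared between arrays for 1 gene and never between genes, because each probe set binds with its own strength. The number of arrays limits the precision: the median standard error (SE) of an overload difference in wildtype was 0.067 over the 77 genes, as over all genes tested. The 24 arrays had median intensities between 138.9 and 146.7. Mstn itself averaged 10.25 ± 0.11 (SD, n = 6) in untreated and 8.40 ± 0.19 in overloaded wildtype, against 8.93 ± 0.31 and 8.25 ± 0.30 in Mstn-/-. It was lower in Mstn-/- without overload (limma, -1.33, adjusted p = 2.7e-08), the difference under overload was not called (-0.15, adjusted p = 0.39), and the sources used here do not say which part of Mstn its probe set covers. All 8 listed markers of fast and general myofibres were measured, with a summed intensity between 58587 and 98875 per array. They do not tell the plantaris from other muscles.

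By the weight that limma's array-quality model gave them, where 1 is an average array, 3 arrays stood apart from their groups: untreated wildtype replicate 1 (0.438), overloaded wildtype replicate 3 (0.391) and overloaded wildtype replicate 4 (0.387). Counts without them are given with each comparison that uses them.

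Overload of wildtype muscle lowered most of the family. Of the 77 genes 68 fell and 1 rose, while of all genes tested 35.6% fell and 30.3% rose, 65.9% in all. The median difference of the 77 genes was -0.40, against -0.06 over all genes tested. For 53 of them every overloaded array lay below every untreated array, as it did for 21.1% of all genes. A fall of at least 1.5-fold was found for 22 of the 77 genes and none fell 2-fold, shares that were not counted over all genes. The lower quartile of the differences was -0.59 for the 77 genes and -0.24 for all genes tested. Without the 3 low-weight arrays, together or 1 at a time, between 66 and 69 genes were called.

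**Figure D1:**
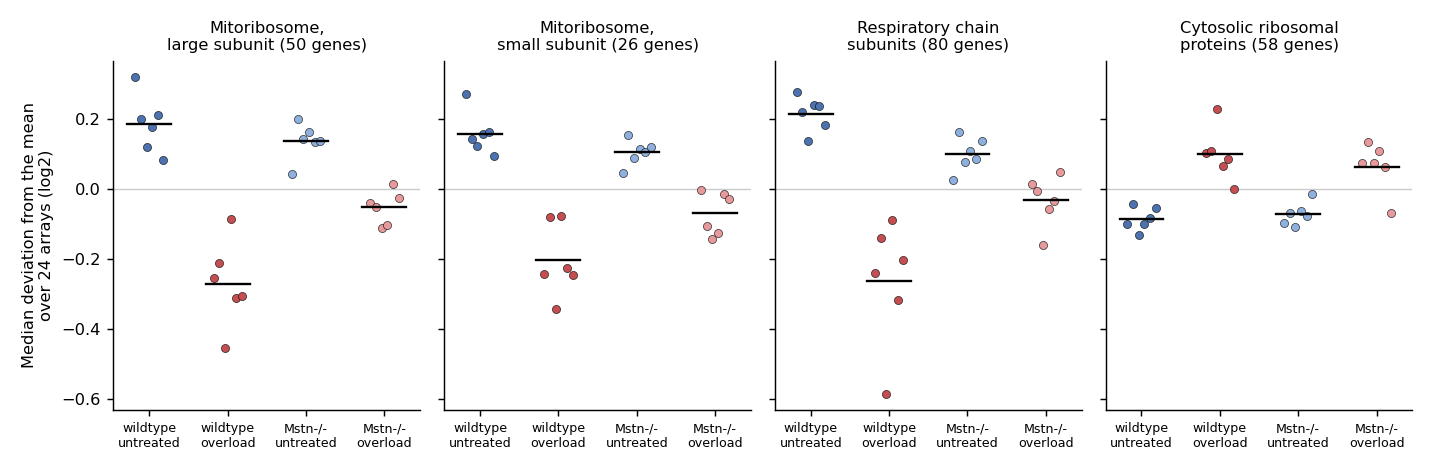
Each point is 1 array, and its height is the median, over the genes of a list, of the gene's log2 level minus its mean over the 24 arrays; bars are means of 6 arrays, for the 50 large-subunit genes, 26 small-subunit genes, 80 respiratory chain subunits and 58 cytosolic ribosomal proteins. Both subunits of the mitochondrial ribosome are lowest in overloaded wildtype muscle, and the mean of the overloaded Mstn-/- arrays lies between these and the untreated means.

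The fall showed in every array of the group. The median deviation of the 77 genes from their means over all arrays ran from 0.09 to 0.32 in untreated wildtype, with a median of 0.18, and from -0.44 to -0.09 in overloaded wildtype, with a median of -0.26. The lowest of these arrays was overloaded replicate 3 and the highest overloaded one replicate 4, both among the low-weight arrays. The highest untreated array was replicate 1, which also had a low weight.

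Large-subunit genes with bacterial counterparts shared in the fall: 28 of 30 fell and none rose, with a median of -0.49. Mrpl1, which forms the mobile stalk beside the exit site for used tRNA, ran from 8.79 to 9.35 (median 8.99) in untreated and from 7.88 to 8.45 (median 8.17) in overloaded wildtype. The groups did not overlap, and the difference was -0.92 (SE 0.09, limma adjusted p = 5.6e-10).

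Mrpl35, another core protein of the large subunit, lay between 10.10 and 10.29 (median 10.18) untreated and between 8.99 and 9.55 (median 9.31) overloaded. All 6 overloaded arrays were lower, by 0.89 on average (SE 0.07, limma adjusted p = 2.9e-11). Mrpl34 ran from 10.61 to 10.81 (median 10.63) untreated and from 9.60 to 9.97 (median 9.91) overloaded, again without overlap, a difference of -0.80 (SE 0.07, limma adjusted p = 4.5e-11).

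Large-subunit genes counted as specific to mitochondria behaved alike, with 17 of 20 genes lower, none higher and a median of -0.44. Mrpl42 had the most negative estimate of all 77. It ran from 9.15 to 9.64 (median 9.45) in untreated and from 8.05 to 8.86 (median 8.42) in overloaded wildtype, with no overlap, a difference of -0.97 (SE 0.10, limma adjusted p = 5.5e-09). Mrpl45, whose protein sits at the tunnel exit and anchors the ribosome to the inner membrane, fell by 0.76 (SE 0.09, limma adjusted p = 8.1e-08). Mrps18a, a large-subunit protein in spite of its symbol, fell by 0.71, and Mrps30 fell by 0.46.

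In the small subunit 14 of 16 genes with bacterial counterparts fell (median -0.29), and 8 of 10 specific to mitochondria fell while 1 rose (median -0.37). Mrps18b, 1 of 3 mitochondrial relatives of a single bacterial protein, ran from 10.40 to 10.67 (median 10.49) untreated and from 9.41 to 9.80 (median 9.70) overloaded. The groups did not overlap, and the difference was -0.84 (SE 0.07, limma adjusted p = 2.7e-11). Its relative Mrps18c, which remained closer to the bacterial form, changed by -0.21 (SE 0.08, limma adjusted p = 0.023) with overlapping arrays. Mrps21 and Mrps28 fell by 0.73 and 0.72.

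The gene that rose in wildtype was Mrps34, which encodes a mitochondria-specific protein of the small subunit. It ran from 8.53 to 8.77 (median 8.65) untreated and from 8.65 to 8.98 (median 8.86) overloaded. The arrays overlapped, and the difference was 0.20 (SE 0.06, limma adjusted p = 0.005). The 8 genes not called in wildtype had estimates between -0.13 (Mrpl40) and 0.09 (Mrps16).

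**Figure D2:**
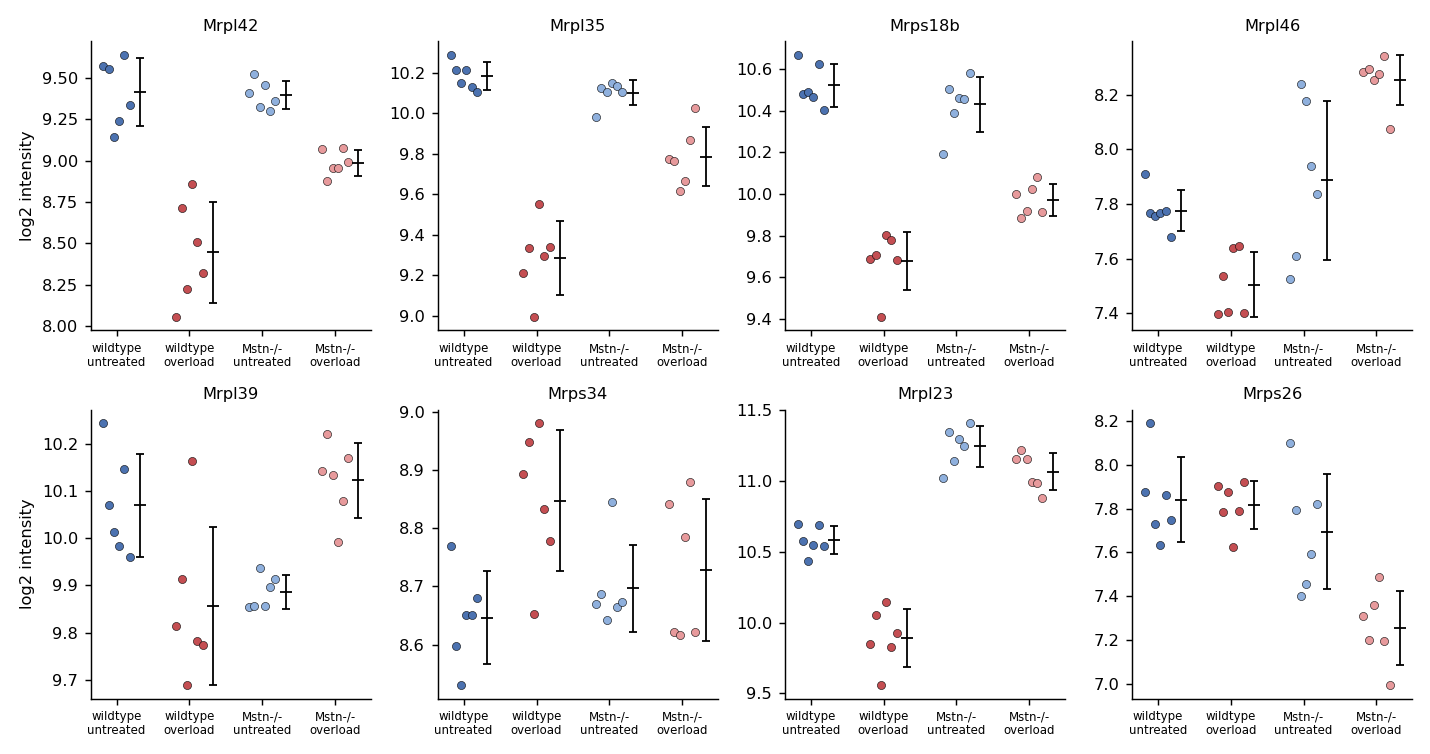
Log2 intensity of 8 genes on each of the 24 arrays, 6 per group, with the group mean ± SD to the right of each group; each panel has its own axis, which does not start at 0. Mrpl42, Mrpl35 and Mrps18b fall in both genotypes and further in wildtype, Mrpl46 and Mrpl39 fall in wildtype and rise in Mstn-/-, Mrps34 rises in wildtype, Mrpl23 is higher in Mstn-/- throughout, and Mrps26 is lowest in overloaded Mstn-/- muscle.

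Some members were named for a textbook role. Mrpl12, at the tip of the stalk that recruits translation factors and also reported to bind the mitochondrial RNA polymerase, changed by -0.38 (limma adjusted p = 7.7e-05), and Mrpl10, which anchors that stalk, by -0.26. Mrpl32, which has to be cut by the m-AAA protease before it joins the ribosome, fell by 0.37. Mrps12, the protein of the decoding centre, fell by 0.19, a call that was lost without overloaded replicate 4 (-0.16) and without the 3 low-weight arrays (-0.17).

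Mrpl3, Mrpl44 and Mrps22, in which mutations are known to cause heart muscle disease, fell by 0.37, 0.36 and 0.27. Mrpl58, a built-in hydrolase that frees stalled chains, fell by 0.31. Mrps36, the citric acid cycle subunit, fell by 0.59 (limma adjusted p = 1.4e-06), so its change was of the size seen among true ribosomal members.

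Mrpl41 fell by 0.27 on the probe set used, while its other probe set gave -0.11, which was not called. For Mrpl27, Mrpl41, Mrpl51 and Mrps33 the brighter probe set, the one used, is numbered among probe sets of genes on another chromosome. It may read a near-identical copy, and the values of these 4 genes are uncertain.

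RefSeq promoters (250 bases before to 50 after the start, assembly GRCm38.p6) were matched by gene identifier for 68 of the 77 genes. Windows of the 250 bases before the start are shown for genes with large falls in overloaded wildtype. Only genes with exactly 1 RefSeq promoter and no start of another gene on the opposite strand within 500 bases were considered. The windows shown are those of Mrpl42, with the most negative estimate, and of 4 more genes. These have the largest falls among the genes considered whose window holds at least 1 of the 3 motifs searched below. Each reads 5′ to 3′ on the gene's own strand and ends just before the start. Capitals mark an ETS-type motif CCGGAAG or an NRF1 motif, GCGCA then any base then GCGC, on either strand.
Mrpl42, chr10:95501950-95502199, minus strand: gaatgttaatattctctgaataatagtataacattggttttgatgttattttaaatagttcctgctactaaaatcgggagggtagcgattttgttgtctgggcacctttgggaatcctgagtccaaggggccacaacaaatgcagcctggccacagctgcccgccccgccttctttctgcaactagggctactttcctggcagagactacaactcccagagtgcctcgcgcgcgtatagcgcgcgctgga
Mrpl34, chr8:71464676-71464925, plus strand: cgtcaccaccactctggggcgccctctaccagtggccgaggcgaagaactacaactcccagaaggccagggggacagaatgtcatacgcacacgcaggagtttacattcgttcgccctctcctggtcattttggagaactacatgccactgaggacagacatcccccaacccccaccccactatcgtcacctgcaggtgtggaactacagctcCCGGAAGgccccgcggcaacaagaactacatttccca
Mrpl45, chr11:97315466-97315715, plus strand: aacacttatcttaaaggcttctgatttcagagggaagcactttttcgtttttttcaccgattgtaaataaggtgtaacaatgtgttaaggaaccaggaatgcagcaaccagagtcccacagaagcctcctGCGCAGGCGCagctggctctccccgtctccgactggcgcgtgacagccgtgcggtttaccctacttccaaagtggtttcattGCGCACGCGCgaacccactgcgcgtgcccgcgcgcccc
Mrps21, chr3:95871515-95871764, minus strand: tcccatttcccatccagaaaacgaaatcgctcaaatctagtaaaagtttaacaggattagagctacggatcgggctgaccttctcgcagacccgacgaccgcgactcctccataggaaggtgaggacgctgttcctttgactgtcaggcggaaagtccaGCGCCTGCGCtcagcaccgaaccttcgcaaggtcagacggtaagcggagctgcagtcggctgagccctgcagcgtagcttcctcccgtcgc
Mrps18a, chr17:46110754-46111003, plus strand: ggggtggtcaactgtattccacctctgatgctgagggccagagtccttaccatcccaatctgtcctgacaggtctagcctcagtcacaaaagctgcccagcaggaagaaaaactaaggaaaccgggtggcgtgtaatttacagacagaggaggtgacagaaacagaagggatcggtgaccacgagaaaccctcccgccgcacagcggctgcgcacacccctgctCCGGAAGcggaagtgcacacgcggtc

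ETS-family factors such as GABP, the factor NRF1 and YY1 are known regulators of nuclear genes for mitochondrial proteins. The ETS motif CCGGAAG was found on either strand in the promoters of 25 of the 68 genes (36.8%), against 17% of the 11424 tested genes with a promoter and 9.93% of all 27025. The NRF1 motif was found in 13 (19.1%) against 9.75% of tested genes, and the YY1 motif AAGATGG in 13 (19.1%) against 7.76%. The GC box GGGCGG was found in 50% of the 68 genes and 64.4% of tested genes, TATAAA in 7.35% and 9.70%, and the E-box CACGTG in 7.35% and 11.1%. These shares describe letters in a window of 300 bases. The windows of Mrpl34 and Mrps18a carry 1 ETS motif each, Mrpl45 carries 2 NRF1 motifs and Mrps21 1, and Mrpl42 has none of the 3.

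Overload of Mstn-/- muscle moved the family less. Of the 77 genes 39 fell and 4 rose, with 33.5% of all genes tested falling and 27.1% rising. The 43 changed genes are thus no larger a share than the 60.6% of all genes called in this comparison, while falls made up 50.6% of the 77 genes. The median was -0.16, against -0.06 for all genes, and none of the 77 fell by 1.5-fold. The lower quartile was -0.34 for the 77 genes and -0.21 for all genes. For 20 genes the overloaded arrays all lay below the untreated ones, and for 1 above, where the shares over all genes were 20.1% and 19.8%. In the array medians, untreated Mstn-/- ran from 0.04 to 0.18 and overloaded Mstn-/- from -0.13 to -0.00, which do not overlap.

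In Mstn-/- the 4 largest falls were those of Mrps21, Mrps28, Mrpl55 and Mrps18b. Mrps21 ran from 11.67 to 12.06 (median 11.75) untreated and from 11.06 to 11.48 (median 11.23) overloaded, a difference of -0.53 (SE 0.08, limma adjusted p = 2.8e-06) with no overlap. Mrps28 fell by 0.50, Mrpl55 of the large subunit by 0.46 and Mrps18b by 0.46, each without overlap between the groups. By subunit, 28 of 50 large-subunit genes fell (56%, median -0.17) and 11 of 26 small-subunit genes (42.3%, median -0.13). The share of all genes tested that fell was 33.5%.

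Rises were called for 4 genes. Mrpl46 ran from 7.52 to 8.24 (median 7.89) in untreated and from 8.07 to 8.34 (median 8.28) in overloaded Mstn-/- muscle. The untreated arrays were spread widely and overlapped the overloaded ones, and the difference was 0.37 (SE 0.09, limma adjusted p = 0.0011). Mrpl39, which resembles a threonyl-tRNA synthetase, ran from 9.85 to 9.94 (median 9.88) untreated and from 9.99 to 10.22 (median 10.14) overloaded, a rise of 0.24 (SE 0.06, limma adjusted p = 0.0023) without overlap. Mrps18c changed by 0.23 (limma adjusted p = 0.018) and Mrpl40 by 0.14 (limma adjusted p = 0.049). These last calls were lost when every array was shifted to 1 common median (0.17 and 0.08), that of Mrps18c also with a repeat of quantile normalization (0.16), and that of Mrpl40 without the filter on dim genes.

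**Figure D3:**
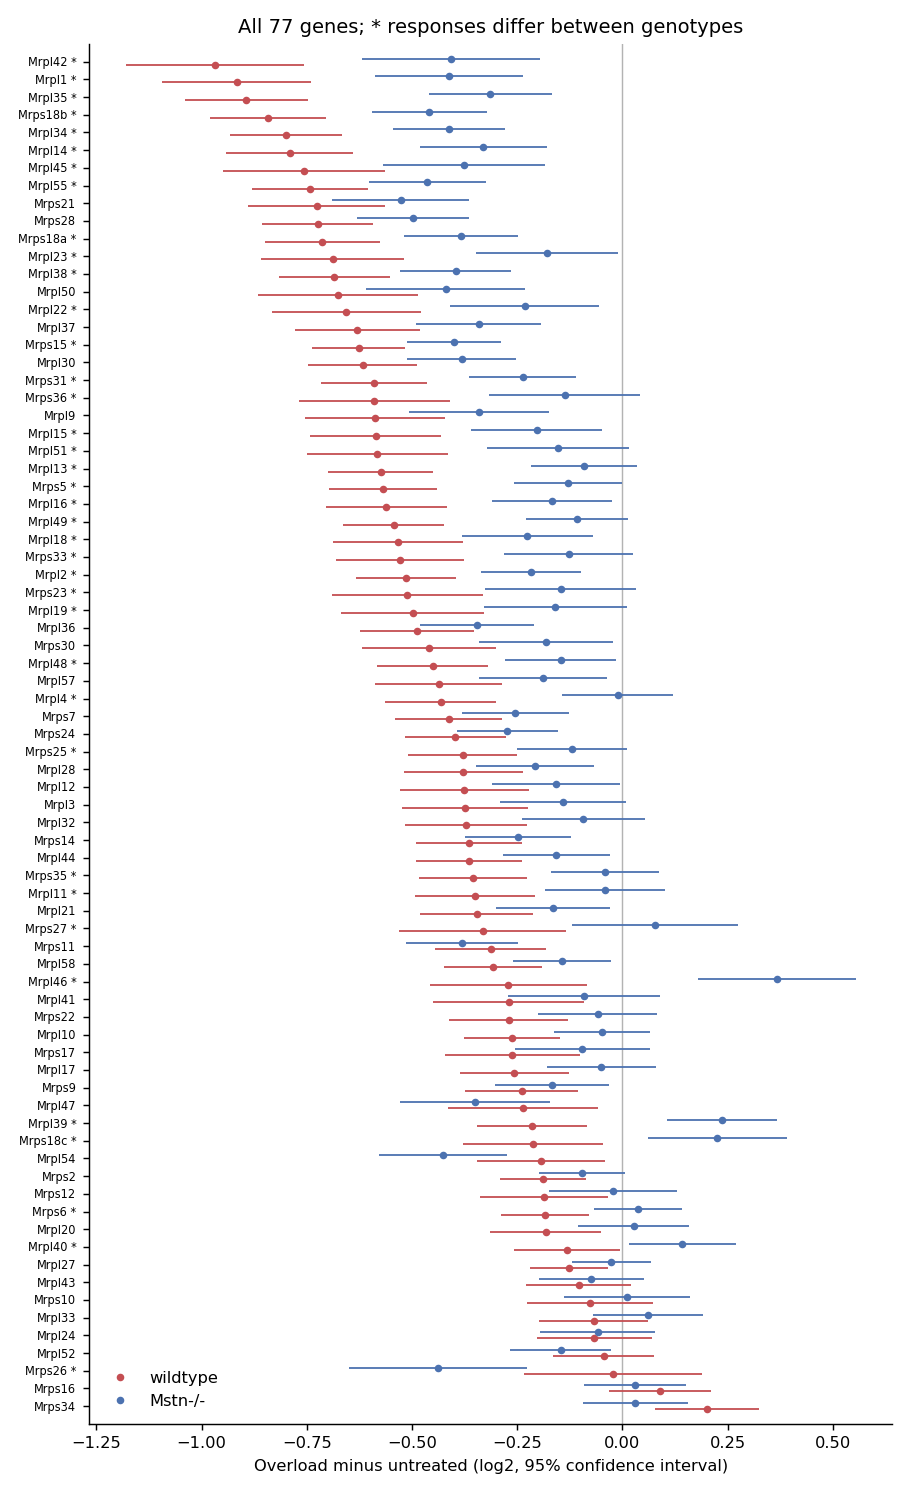
Overload minus untreated (log2) for all 77 genes with the 95% confidence interval from the limma fit, in wildtype (red) and Mstn-/- (blue), ordered by the wildtype estimate; a star marks the 38 genes whose responses differ between genotypes. The wildtype estimate is the more negative in 70 of 77 genes, and the lower in 6705 of all 14499 genes tested.

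The overload response of the family depended on the genotype. The response in Mstn-/- minus that in wildtype was called higher for 37 genes and lower for 1, against 8.92% and 8.44% of all genes tested (17.4% in all), with a median of 0.26. The wildtype and Mstn-/- responses share no arrays, and 70 of the 77 estimates were more negative in wildtype. Over all 14499 genes tested the wildtype estimate was the lower for 6705. Across the 77 genes the 2 responses had a Pearson correlation of 0.65 and a Spearman correlation of 0.69, a description over genes that were read on the same arrays. The number of genes with a called difference in response was 25, all higher, without untreated wildtype replicate 1, 27 without overloaded wildtype replicate 3, 48 without overloaded wildtype replicate 4 and 35 without all 3.

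Of the 37 genes with a higher response in Mstn-/-, 17 fell in both genotypes and 16 fell in wildtype without a call in Mstn-/-. The remaining ones were Mrpl46, Mrpl39 and Mrps18c, which fell in wildtype and rose in Mstn-/-, and Mrpl40, which rose in Mstn-/- without a call in wildtype. Of the 28 genes that fell in wildtype without a call in Mstn-/-, 12 had no called difference between the responses, so for these a difference between genotypes was not shown.

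Mrpl46 had the largest estimate. Its response was -0.27 in wildtype, where untreated arrays ran from 7.68 to 7.91 (median 7.77) and overloaded ones from 7.40 to 7.64 (median 7.47) without overlap. With 0.37 in Mstn-/-, the difference in response was 0.64 (SE 0.13, limma adjusted p = 0.0011). Mrpl39 lay between 9.96 and 10.25 (median 10.04) untreated and between 9.69 and 10.16 (median 9.80) overloaded in wildtype, and its responses differed by 0.45 (SE 0.09, limma adjusted p = 0.001).

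Of the genes with large falls in wildtype, some had a called difference in response and others did not. Mrpl35 in Mstn-/- ran from 9.98 to 10.15 (median 10.12) untreated and from 9.62 to 10.03 (median 9.77) overloaded, and its responses differed by 0.58 (SE 0.10, limma adjusted p = 0.00026). Mrpl42 in Mstn-/- ran from 9.30 to 9.52 (median 9.38) untreated and from 8.87 to 9.08 (median 8.97) overloaded, a difference in response of 0.56 (SE 0.15, limma adjusted p = 0.0083). In both Mrpl35 and Mrpl42 the fall in Mstn-/- also passed the test. Mrps21 and Mrps28, which fell by 0.73 and 0.72 in wildtype, had differences of 0.20 (SE 0.11, limma adjusted p = 0.24) and 0.23 (SE 0.09, limma adjusted p = 0.089), which were not called.

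Several core proteins of the large subunit fell in wildtype with no call in Mstn-/-. Mrpl13 changed by -0.57 and -0.09, a difference of 0.48 (SE 0.09, limma adjusted p = 0.00035). Mrpl4, which lines the tunnel for the growing chain, changed by -0.43 and -0.01, a difference of 0.42 (limma adjusted p = 0.0019). Mrpl49, a mitochondria-specific protein, changed by -0.54 and -0.11, a difference of 0.44 (limma adjusted p = 0.00064), and Mrps5 of the small subunit by -0.57 and -0.13, a difference of 0.44 (limma adjusted p = 0.0011) that was 0.32 and not called on its other probe set.

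Mrps26, a mitochondria-specific protein of the small subunit, went the other way. It ran from 7.63 to 8.19 (median 7.81) and from 7.62 to 7.92 (median 7.83) in untreated and overloaded wildtype, which overlap throughout. In Mstn-/- it ran from 7.40 to 8.10 (median 7.69) untreated and from 6.99 to 7.49 (median 7.26) overloaded. Its responses differed by -0.41 (SE 0.15, limma adjusted p = 0.049), a call at the threshold that was lost under 6 of the alternatives tried, with estimates between -0.45 and -0.39. Mrps36 changed by -0.59 in wildtype and by -0.14, not called, in Mstn-/- (difference 0.45, limma adjusted p = 0.012).

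**Figure D4:**
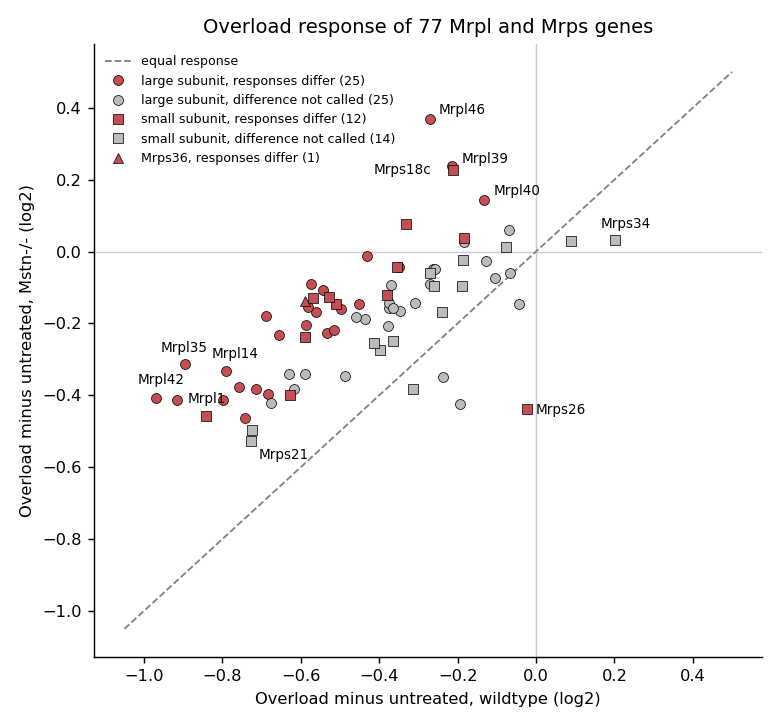
Each point is 1 of the 77 genes, with its overload response (log2) in wildtype on the horizontal and in Mstn-/- on the vertical axis; red points have a called difference between the responses and the dashed line marks equal responses. Most points lie above the line and left of 0, Mrpl46, Mrpl39, Mrps18c and Mrpl40 lie above 0 on the vertical axis, and Mrps26 lies apart below the line.

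Both subunits took part, where 8.92% of all genes tested had a higher response in Mstn-/-. The response was higher for 25 of 50 large-subunit genes (median 0.28) and 11 of 26 small-subunit genes (median 0.21). Within the small subunit it was higher for 7 of 10 mitochondria-specific genes and 4 of 16 with bacterial counterparts, a contrast that was not tested. Promoters of the 31 genes with a higher response in Mstn-/- held the ETS motif in 35.5%, those of the other 37 in 37.8%. The NRF1 motif was in 9.68% and 27.0% of them, that is 3 and 10 genes, and the GC box in 61.3% and 40.5%.

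Without overload the genotypes differed in 21 genes. In Mstn-/- 6 genes were higher and 15 lower than in wildtype, with 11.1% and 10.2% of all genes tested doing so (21.3% in all), and the median difference was -0.07. Without the low-weight arrays, together or 1 at a time, between 17 and 22 genes were called. For 3 genes all Mstn-/- arrays lay above the wildtype arrays and for 12 below, against 6.53% and 5.47% of all genes.

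Mrpl23, an exit-tunnel protein of the large subunit, was the most different member. It ran from 10.43 to 10.69 (median 10.56) in untreated wildtype and from 11.02 to 11.41 (median 11.27) in untreated Mstn-/-. All Mstn-/- arrays were higher, by 0.66 on average (SE 0.08, limma adjusted p = 1.5e-06), and by 0.49 on its other probe set. Mrpl15, Mrpl11, Mrpl54 and Mrpl48 were higher by 0.30, 0.30, 0.30 and 0.28.

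Mrpl14 lay between 9.78 and 9.99 (median 9.83) in untreated wildtype and between 9.22 and 9.44 (median 9.30) in untreated Mstn-/-. Its protein sits on the subunit interface, where the assembly factor Malsu1 binds. The groups did not overlap, and the difference was -0.53 (SE 0.07, limma adjusted p = 6.9e-06). Mrpl19, Mrpl34, Mrpl10 and Mrpl13 were lower by 0.39, 0.35, 0.29 and 0.25 in Mstn-/-, each without overlap.

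Under overload the genotypes differed in 44 genes. In Mstn-/- 41 genes were higher and 3 lower than in overloaded wildtype, with a median of 0.19, while 17.5% and 19% of all genes tested were higher and lower (36.5% in all). Without the low-weight arrays, together or 1 at a time, between 41 and 50 genes were called. Of these 41 genes 32 were not called without overload, 4 had been lower, and 5 were higher in both conditions: Mrpl23, Mrpl15, Mrpl11, Mrpl48 and Mrps25. All Mstn-/- arrays lay above the wildtype arrays for 15 genes and below for 2, against 7.06% and 8.46% of all genes.

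Mrpl23 ran from 9.56 to 10.14 (median 9.89) in overloaded wildtype and from 10.88 to 11.22 (median 11.08) in overloaded Mstn-/-, a difference of 1.17 (SE 0.08, limma adjusted p = 3.4e-10) and 1.04 on its other probe set. It was the only member more than 2-fold apart in any comparison. Mrpl46 was higher by 0.75, Mrpl15 by 0.69, Mrps27, which belongs to the RNA-binding pentatricopeptide repeat proteins, by 0.61, and Mrpl11, at the base of the factor-binding stalk, by 0.61, each without overlap.

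The genes lower in overloaded Mstn-/- were Mrps26 (-0.56), Mrpl47 (-0.26) and Mrpl52 (-0.24). Mrps26 and Mrpl52 did not overlap between the groups. The value of Mrpl47 depended on the probe set: the mean of both gave 0.035 and the other probe set 0.33, so its direction is not settled.

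The mitochondrial ribosome also holds proteins named otherwise, and 4 were tested. Dap3, Ptcd3, Chchd1 and Gadd45gip1 all fell in wildtype, 1 of them (Dap3) in Mstn-/-. Ptcd3, a protein of the small subunit, averaged 9.15 ± 0.15 (SD, n = 6) in untreated and 8.41 ± 0.27 in overloaded wildtype, and 9.11 ± 0.09 and 8.996 ± 0.095 in Mstn-/-. Its fall of 0.73 in wildtype (limma adjusted p = 7.7e-08) was larger than in Mstn-/- by 0.62 (SE 0.13, adjusted p = 0.0015).

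Factors that assemble the mitochondrial ribosome fell in wildtype for 25 of 27 genes and in Mstn-/- for 15, with 1 higher there (Mettl15, 0.29). The shares of all genes tested that fell were 35.6% and 33.5%. Tfb1m, which methylates the RNA of the small subunit, fell by 0.86 in wildtype (limma adjusted p = 2.4e-08), and its responses differed by 0.64 (adjusted p = 0.0024). Eral1, a chaperone of the same RNA, fell by 0.81, and Malsu1 by 0.80. The response was higher in Mstn-/- for 7 of the 27 (25.9%), against 8.92% of all genes tested.

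Of 15 mitochondrial translation factors 11 fell in wildtype, and 6 fell and 1 rose in Mstn-/-. Of all genes tested 35.6% fell in wildtype and 33.5% in Mstn-/-. The 40% of translation factors that fell in Mstn-/- are thus near the share over all genes. The elongation factor Tufm fell by 0.52 in wildtype, and its responses differed by 0.48 (limma adjusted p = 0.0095). Of 19 mitochondrial tRNA synthetases and amidotransferase subunits 17 fell in wildtype and 10 in Mstn-/-, with Gatc lowest in wildtype (-0.88). Of 14 genes that copy, transcribe and process mitochondrial DNA and its RNA, 14 fell in wildtype and 12 in Mstn-/-. Prorp, the nuclease subunit of mitochondrial RNase P, fell by 1.14 in wildtype (limma adjusted p = 7.2e-11), and Tfam, which packages and transcribes mitochondrial DNA, by 0.70.

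**Figure D5:**
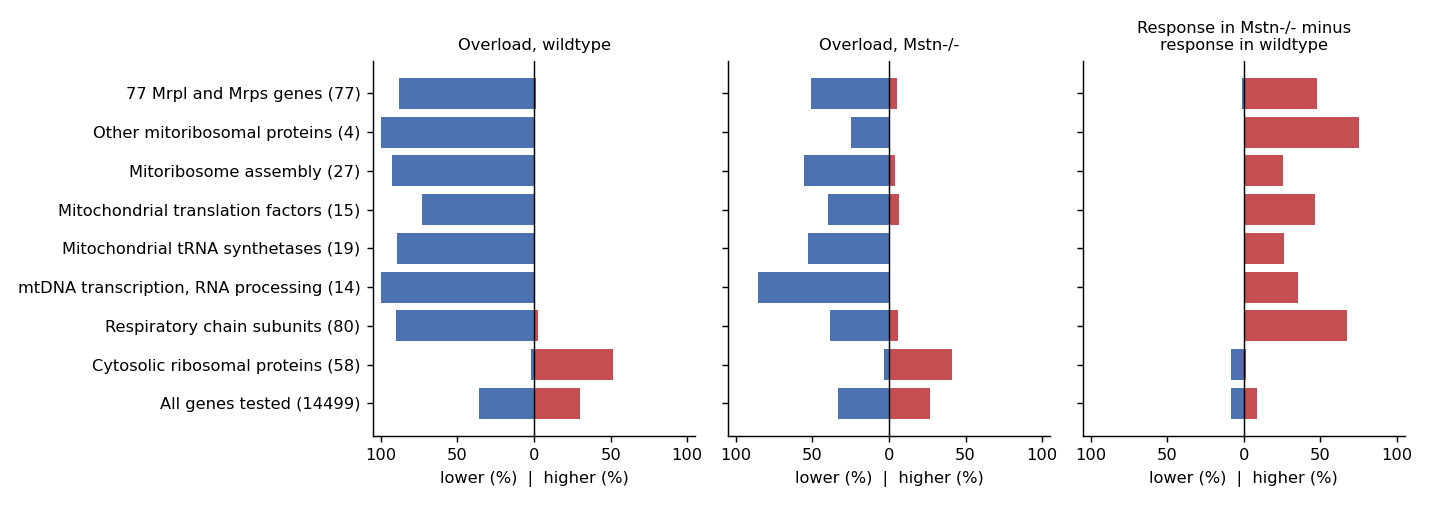
Share of each list's tested genes (%, number tested in brackets) called lower (blue, to the left) or higher (red, to the right) for overload in wildtype, overload in Mstn-/- and the difference between these responses. Of the mitochondrial lists between 73.3% and 100% of genes are lower in overloaded wildtype and between 25% and 85.7% in overloaded Mstn-/- muscle. Of all genes tested 35.6% and 33.5% are lower. Cytosolic ribosomal proteins are mostly higher or not called.

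Nuclear-encoded subunits of the respiratory chain, whose partners the mitochondrial ribosome makes, fell with the family in wildtype. There 72 of 80 fell and 2 rose (median -0.47), with 35.6% of all genes tested falling. In Mstn-/- 31 fell and 5 rose (median -0.14). These falls were 38.8% of the subunits, near the 33.5% of all genes tested. The response was higher in Mstn-/- for 54 and lower for none, where 8.92% of all genes tested were higher. Cytosolic ribosomal proteins did not share the fall. Of 58 genes 30 rose and 1 fell in wildtype (median 0.16), 24 rose and 2 fell in Mstn-/- (median 0.14), and the responses differed for 6. Rises made up 51.7% and 41.4% of these genes, against 30.3% and 27.1% of all genes tested. The gene that fell in wildtype was Rpl3l, a form made in heart and skeletal muscle (-1.50, limma adjusted p = 2.6e-11). Mitochondrially encoded genes were not analysed here.

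Among 10 regulators listed for these genes, 3 rose and 5 fell in wildtype, and 4 rose and 3 fell in Mstn-/-. Of all genes tested 30.3% rose and 35.6% fell in wildtype, and 27.1% rose and 33.5% fell in Mstn-/-. With 10 genes these counts do not set the list apart. Ppargc1a, a coactivator that drives mitochondrial genes, had the smallest adjusted p of the list in wildtype. It averaged 10.52 ± 0.09 (SD, n = 6) and 9.21 ± 0.34 in untreated and overloaded wildtype and 10.29 ± 0.05 and 10.37 ± 0.28 in Mstn-/-. Its fall of 1.31 in wildtype (limma adjusted p = 3.4e-10) had no counterpart in Mstn-/- (0.08, adjusted p = 0.59), and its responses differed by 1.38 (adjusted p = 4.4e-06). In all, the response was higher in Mstn-/- for 2 of the 10 regulators and lower for 1, against 8.92% and 8.44% of all genes tested. The others were Ppargc1b (0.41, limma adjusted p = 0.0082) and, in the opposite direction, Yy1 (-0.28, limma adjusted p = 0.0078). Yy1 averaged 9.43 and 9.47 in untreated and overloaded wildtype and 9.78 and 9.54 in Mstn-/-. Esrra fell by 0.39 in wildtype and by 0.36 in Mstn-/-, and Gabpa by 0.22 and 0.20. Nrf1 changed by -0.13 in wildtype (limma adjusted p = 0.0046) and by -0.08 in Mstn-/- (adjusted p = 0.091), and Myc rose by 0.77 and 0.82.

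In whole muscle, fewer cells of a type and less RNA per cell cannot be told apart. Markers of fast and general myofibres moved with the family: their summed intensity ran from 88883 to 90813 in untreated and from 58587 to 73379 in overloaded wildtype, and from 91728 to 98875 and from 84069 to 90831 in Mstn-/-. Of these 8 genes 6 fell in wildtype and 5 in Mstn-/-, and the responses differed for 4. Macrophage markers moved the opposite way, with 8 of 8 higher in both genotypes. Their summed intensity ran from 1783 to 2463 and from 10000 to 14783 in wildtype, and from 2798 to 3608 and from 6896 to 13198 in Mstn-/-. Of 6 fibroblast markers 6 rose in wildtype and 5 in Mstn-/-, and the response was lower in Mstn-/- for 4 of the macrophage and 4 of the fibroblast markers. Slow myofibre markers were lower in Mstn-/- for 6 of 6 genes, with and without overload. Under overload 4 of these 6 rose and 1 fell in wildtype, and 3 rose in Mstn-/-. Their summed intensity ran from 5740 to 9443 and from 8568 to 14960 in untreated and overloaded wildtype, and from 1248 to 2006 and from 2908 to 3442 in Mstn-/-. The summed intensity of slow myofibre markers thus did not fall with the family, while that of fast and general markers did. Of 6 endothelial markers 5 rose in each genotype, where 30.3% and 27.1% of all genes tested rose in wildtype and Mstn-/-. The part of these cell types in the fall of the ribosomal genes, and in its difference between genotypes, was not tested.

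Genes that start next to a member were also looked at. Of the 68 members with a RefSeq promoter, 23 have the start of another gene on the opposite strand within 500 bases. The 9 members without a promoter were not searched. For 17 of the 23 the neighbour was tested and is not itself a member. In wildtype 14 of these 17 members fell, and of their neighbours 10 fell and 2 rose, where 35.6% and 30.3% of all genes tested did so. Some neighbours themselves encode mitochondrial proteins, among them Sars2, Twnk and Ndufb5, which all fell in wildtype. The response was higher in Mstn-/- for 7 members and for 2 neighbours, Sars2 (0.37) and Ptcd2 (0.38), with 8.92% of all genes tested higher. It was lower for 1 member, Mrps26, and no neighbour.

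The pair of Mrpl49 and Fau, which encodes a ubiquitin-like protein fused to a cytosolic ribosomal protein, has starts 192 bases apart: in wildtype Mrpl49 changed by -0.54 and Fau by 0.45 (limma adjusted p = 2e-06). Mrpl30 and Mitd1 have starts 66 bases apart and changed by -0.62 and 0.63. Both pairs moved in opposite directions in wildtype.

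Mrpl46 and Mrps11 are members with starts 42 bases apart. The bases between them are shown on the strand of Mrpl46, and hold none of the ETS, NRF1 and YY1 motifs.
Mrpl46 to Mrps11, chr7:78783090-78783130, minus strand: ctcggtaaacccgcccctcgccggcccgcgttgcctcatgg

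In wildtype both genes fell, Mrpl46 by 0.27 and Mrps11 by 0.31. In Mstn-/- Mrpl46 rose by 0.37 and Mrps11 fell by 0.38 (limma adjusted p = 1.5e-05). The responses of Mrps11 differed by -0.07 (limma adjusted p = 0.68).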

How the data were processed

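Per the submitters' processing notes, the authors ran RMA on the arrays, with no version named, and deposited 1 intensity per probe set and array. RMA removes background, equalises the arrays and summarises the probes of a set, so levels are relative within a gene. These intensities lie between 4.72 and 25589, a linear scale. The planned design had assumed a log scale, so log2 was taken here with no pseudocount. The array annotation names no genome build. RefSeq tables (assembly GRCm38.p6) gave promoters and neighbouring genes, matched by gene identifier.

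Of 34760 probe sets, the 21640 with exactly 1 symbol were used, and 1321 with several and 11799 with none were left out. Where a gene had more than 1 such set, the brightest by its mean over 24 arrays stood for it. A gene was tested if at least 1 group mean exceeded the 30th percentile of annotated probe sets (intensity 98.9).

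The 4 group means were estimated together from the 24 arrays with limma 3.58.1 in R 4.3.3 (eBayes, Benjamini-Hochberg over 14499 genes per comparison, threshold 0.05), after a test on simulated data. Replicates are labelled as biological. Alternatives were other scalings, filters, probe sets and variance models, array weights, the replicate block and leaving out arrays.

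The members and the gene lists were chosen with earlier results of these data known. Genes named with values are the 5 largest rises and 5 largest falls called in each comparison, the members called for the difference in response (the 10 lowest adjusted p at most), up to 5 members against the main direction of overload, 11 members with a textbook role (Mrpl12, Mrpl32, Mrps12, Mrpl3, Mrps22, Mrpl44, Mrps36, Mrpl58, Mrpl41, Mrps30 and Mrps18a), and up to 3 genes per other list. The members of highest and lowest level, also in the rule, are left out because levels of different probe sets are not comparable. Mrpl45, Mrpl51, Mrpl27, Mrps33, Mrps25, Mrps11, Mrpl30, Mrps16, Rpl3l, Fau, Mitd1 and the regulators beyond 3 were named after their values were seen, for a promoter, a probe set, a neighbour or a count.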

Additional observations from a re-analysis of the deposited data

Results flagged for a closer look

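For 40 members named with values, each group of 6 arrays was searched for a highest or lowest array set apart from the other 5 by Dixon's criterion (the gap to the nearest array as a share of the group's range). Chance marks about 1 in 20 groups, and 7 of 160 were marked. Untreated wildtype replicate 1 was high for Mrpl34 (10.81, the others between 10.61 and 10.64) and for Mrps22 (8.77, the others between 8.53 and 8.61). Overloaded wildtype replicate 3 was low for Mrpl14 (8.67, the others between 9.06 and 9.26) and Mrps18b (9.41, the others between 9.68 and 9.80). Both arrays also had low weights. Single arrays of Mstn-/- were apart for Mrpl35 (untreated replicate 1, 9.98), Mrpl46 (overloaded replicate 6, 8.07) and Mrps34 (untreated replicate 4, 8.85).

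By the test of the difference itself, the overload response of 24 of the 40 members named with values differed between the genotypes. The response in Mstn-/- minus that in wildtype was 0.64 for Mrpl46, 0.58 for Mrpl35, 0.56 for Mrpl42, 0.51 for Mrpl23, 0.51 for Mrpl1, 0.48 for Mrpl13, 0.46 for Mrpl14, 0.45 for Mrps36, 0.45 for Mrpl39, 0.44 for Mrps5 and 0.44 for Mrps18c. It was 0.44 for Mrpl49, 0.42 for Mrpl4, 0.41 for Mrps27, 0.39 for Mrpl34, 0.38 for Mrps18b, 0.38 for Mrpl15, 0.34 for Mrpl19, 0.33 for Mrps18a, 0.31 for Mrpl11, 0.30 for Mrpl48, 0.28 for Mrpl55 and 0.27 for Mrpl40. A negative difference was found for 1 of them, -0.41 for Mrps26.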

How the results depend on the processing

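Over 79 results for named members and 14 alternatives, 1042 of 1079 values kept their direction and their side of the threshold, 18 passed it only under the alternative, 16 no longer passed it and 3 turned sign. Mrpl41's difference in response turned from 0.18, not called, to -0.12 with the other probe set, and Mrpl47's genotype difference under overload from -0.26 to 0.035 with the mean of its probe sets and 0.33 with the other probe set. Counts of members called stayed within 1.5 times the main count under every alternative but 1: for the difference in response, 38 genes in the main fit, leaving out an array with a low weight gave 25 to 48, the lowest without untreated wildtype replicate 1. Leaving out these arrays, and taking the other probe set, were chosen after seeing the data.

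With the replicate number as a block the counts called were 69, 42, 21, 44 and 38 for overload in wildtype, overload in Mstn-/-, genotype untreated, genotype under overload and the difference in response, against 69, 43, 21, 44 and 38 without it. Arrays with the same number had a median correlation of deviations of 0.022 over 36 pairs, over 0.1 in 9. The median over 180 pairs with other numbers was -0.006. These medians show little pairing by number over all groups, and pairing within some groups was not tested. With a shift to the same median, 2 rose and 52 fell in Mstn-/- overload, where the median of all genes moved by under 0.1.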

Other observations

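The probe set shared by Mrpl53 and Ccdc142, which cannot be assigned to either gene, averaged 8.41 ± 0.03 (SD, n = 6) in untreated and 8.27 ± 0.10 in overloaded wildtype muscle. In Mstn-/- it averaged 8.43 ± 0.06 and 8.39 ± 0.06.

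The member pair of Mrpl47 and the complex I subunit Ndufb5 has starts 308 bases apart. In wildtype Mrpl47 changed by -0.24 and Ndufb5 by -0.50 (limma adjusted p = 1e-05). Mrpl43 and the mitochondrial DNA helicase Twnk have starts 116 bases apart: Mrpl43 changed by -0.10 in wildtype, which was not called (limma adjusted p = 0.13), and Twnk fell by 0.46 (limma adjusted p = 2.4e-07). In Mstn-/- Mrpl43 changed by -0.07 (limma adjusted p = 0.29) and Twnk fell by 0.45.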
